A study of Rattus norvegicus with 9 samples.

Results

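DNA replication and S phase genes were followed in NRK-49F cells, an established line of fibroblasts from rat kidney, across the 3 treatments of an RNA sequencing study. The set held 36 genes chosen by symbol from what is known of their function, and 35 of them were found in the deposited table of 22050 genes. E2f1 was not analysed here. All 35 passed the filter on low counts, which left 11473 genes for testing. Every group received TGF-β1 for 48 h, the cytokine that turns fibroblasts into contractile, matrix-producing myofibroblasts. The first group also received the compound YEXX-2A, the second the compound YWCH-4A, and the third the vehicle. Each group had 3 libraries. The compounds are known here by code names, and the labels give neither their doses nor when they were added. No group lacked TGF-β1 among the samples used here, so no change is set against resting fibroblasts. The series states biological replicates without saying whether they were separate cultures, and p-values reflect how far these libraries spread.

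Replication begins when the origin recognition complex, Cdc6 and Cdt1 load rings of Mcm2 to Mcm7 onto DNA, and Cdc45 and the GINS complex then turn each ring into a running helicase. Primase and DNA polymerase α start each strand, polymerases δ and ε extend it behind the sliding clamp Pcna, and other enzymes supply nucleotides and pack the new DNA into chromatin. Many of these genes are transcribed in late G1 and S phase under E2F factors, and TGF-β1 is known for halting epithelial cells in G1 while its effect on fibroblast division varies. In bulk RNA, fewer cells in S phase and less transcript per cell cannot be told apart.

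Total estimated counts per library ran from 13675880 to 21923706, and the lowest count of any of the 35 genes was 28. Vehicle replicate 2 stood apart. On the first component of the deviations from group means it scored 36.4, against -21.2 to 11.0 for the other 8 libraries. The biological coefficient of variation was 7.34% among YEXX-2A libraries, 3.67% among YWCH-4A libraries and 16.7% among vehicle libraries, or 4.69% among vehicle libraries without replicate 2. All 3 groups shared 1 estimate of the spread, which sits below the vehicle spread and above that of either compound, so tests against vehicle may call too readily and the test between compounds too rarely. The share of counts from mitochondrially encoded genes was 2.53%, 2.66% and 2.30% with YEXX-2A, 1.88%, 2.00% and 1.89% with YWCH-4A, and 1.90%, 1.42% and 2.04% with vehicle. Of 9 fibroblast markers found, 7 passed the filter, while Thy1 and Dcn were at or below the filter's floor. Summed fibroblast markers ran from 32400 to 35600 CPM with YEXX-2A, 10700 to 11600 CPM with YWCH-4A and 43000 to 55900 CPM with vehicle. Among those 7, log2 fold changes over vehicle ran from -0.896 to 0.214 with YEXX-2A and from -3.717 to 0.695 with YWCH-4A. With YEXX-2A 2 of them were above 0 and 5 below, and with YWCH-4A 3 above and 4 below. The sums therefore do not describe every marker. Of 8 kidney epithelial markers, Epcam, Krt18, Umod and Slc12a1 had no count in any library, and only 2 passed the filter. The sum of the epithelial markers ran from 1520 to 1600 CPM with YEXX-2A, 916 to 964 CPM with YWCH-4A and 1780 to 2300 CPM with vehicle. Leukocyte marker sums of 41.8 to 45.5 CPM with YEXX-2A, 66.2 to 73.7 CPM with YWCH-4A and 47.5 to 62.9 CPM with vehicle rested almost wholly on Cd68, and endothelial markers summed to 1.63 to 4.32 CPM. Their part in the results was not tested.

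Each gene's level in the 9 libraries was first set against its own mean. With YEXX-2A, 12, 11 and 13 of the 35 genes lay above their own mean in replicates 1, 2 and 3. With YWCH-4A these numbers were 31, 25 and 26, and with vehicle 11, 16 and 9. YWCH-4A libraries therefore held most of the set's above-average values. The highest levels sat most often in YWCH-4A replicate 1 (11 genes) and vehicle replicate 2 (10 genes). The lowest sat most often in YEXX-2A replicate 2 (13 genes) and vehicle replicate 2 (11 genes). Matching counts were not made over all tested genes, so these numbers are a description of the set only. The heat map by library shows these columns side by side.

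**Figure D1:**
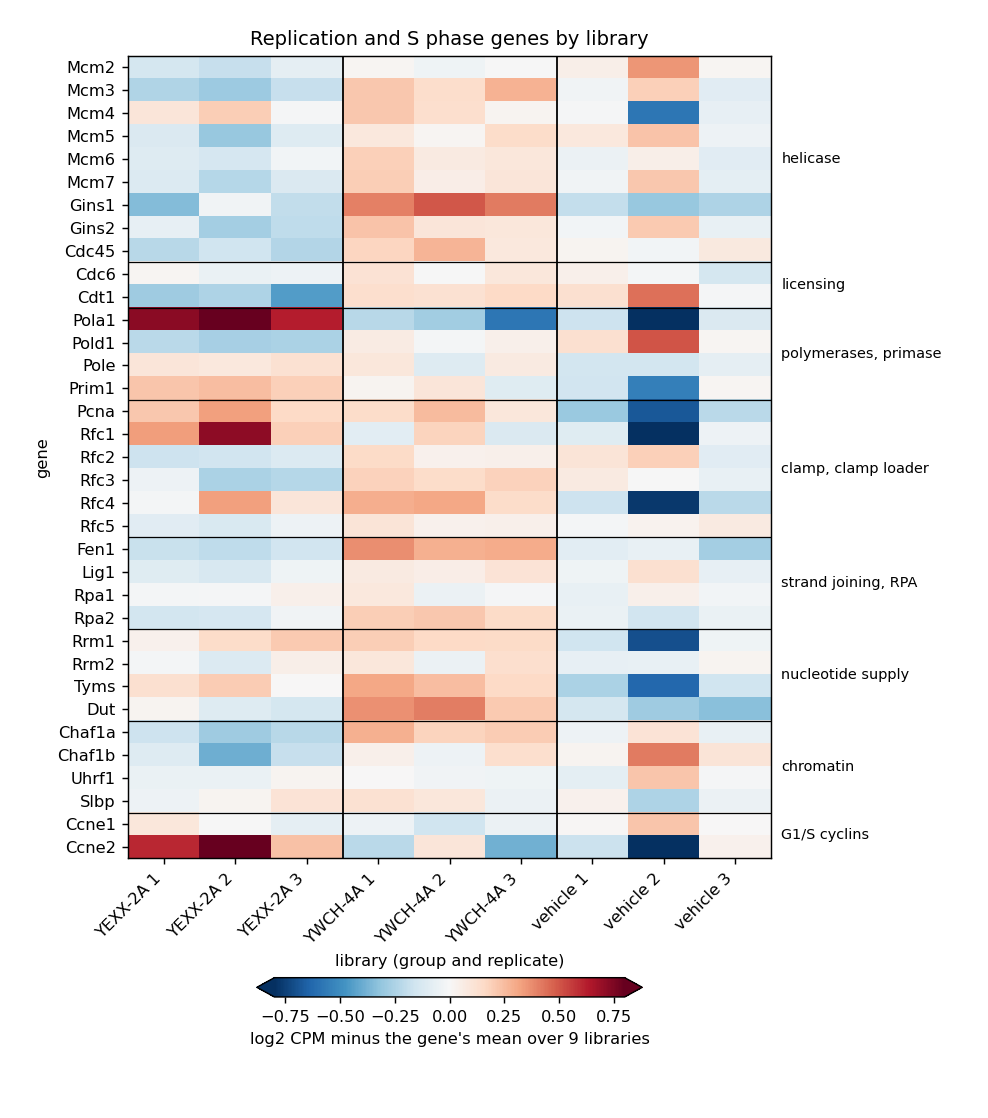
Level of each of the 35 genes (rows, grouped by role) in each library (columns), as log2 CPM minus the gene's mean over the 9 libraries; red is above and blue below that mean. YWCH-4A columns are mostly above it (31, 25 and 26 of 35 genes), and vehicle replicate 2 and YEXX-2A replicate 2 hold many of the extreme values.

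Fold changes were estimated with edgeR's quasi-likelihood test over all 9 libraries, and a gene was called when its Benjamini-Hochberg adjusted p over all 11473 genes was under 0.05. CPM is the count scaled to a common library size with TMM factors. Log2 fold changes are given as the compound minus vehicle, or as YWCH-4A minus YEXX-2A. Calls were repeated with each library left out, and libraries are named by group and replicate, as in YEXX-2A 1 or vehicle 2. Both comparisons with vehicle use the same 3 vehicle libraries, so a gene's 2 values against vehicle are not independent.

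With YEXX-2A, replication genes were called in both directions, in shares not far from those of all genes. Pola1, the catalytic subunit of polymerase α, was 2.15-fold higher with YEXX-2A than with vehicle, and Pcna, Rfc1, Rfc4, Tyms, Prim1, Rrm1, Pole and the cyclin Ccne2 also rose. Cdt1 and Pold1, a loader of the helicase and the catalytic subunit of polymerase δ, fell, as did Mcm2, Mcm3, Mcm5, Cdc45 and both chromatin assembly subunits, Chaf1a and Chaf1b. In all, 9 of 35 genes rose (25.7%) and 8 fell (22.9%), against 17.6% of all tested genes called higher and 18.5% called lower. The median log2 fold change of the 35 was -0.04, beside 0.01 for all genes tested. In limma on log2(FPKM + 1) it was 0.04, beside 0.07 for all genes, so the set's median lay below that of all genes in both. All 3 YEXX-2A libraries lay above all 3 vehicle libraries for 9 genes, against 25.3% of all genes, and below them for 12, against 26.3% of all genes. Pola1, Pcna and Cdt1 kept their calls whichever library was left out. The other 14 calls were lost without at least 1 library, with adjusted p between 0.0501 and 0.153. The counts then ran from 2 to 9 higher and from 1 to 9 lower, beside 3.87% to 23.5% and 5.15% to 22.1% of all genes. Without YEXX-2A replicate 1, 2 rose and 2 fell, beside 5.5% and 7.12% of all genes in that fit. Without YEXX-2A replicate 2, 2 rose and 1 fell, beside 3.87% and 5.15% of all genes. When YEXX-2A and vehicle libraries were fitted alone, 2 genes rose (Pola1 and Pcna) and 2 fell (Cdt1 and Pold1), beside 5.92% and 6.59% of all genes in that fit. The higher calls made up 48.8% of all calls over all genes, and 62% in limma on log2(FPKM + 1), where 10 of the 35 genes rose and 3 fell, beside 20.1% and 12.3% of all genes.

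With YWCH-4A, 9 of the 35 genes (25.7%) rose over vehicle, against 15.7% of all tested genes called higher. These were Gins1, a subunit of the GINS complex, the clamp Pcna and its loader subunit Rfc4, Fen1, Rpa2, the nucleotide enzymes Tyms, Dut and Rrm1, and Chaf1a. None (0 of 35) was called lower by edgeR, against 14.9% of all genes, nor by DESeq2, against 16.6%. At an unadjusted p under 0.05 in edgeR, 0 of 35 was lower, and the share of all genes at that threshold was not counted. The median log2 fold change was 0.14, beside 0.03 for all genes. All 3 YWCH-4A libraries lay above all 3 vehicle libraries for 13 genes, against 24.9% of all genes, and below them for 2, Mcm2 and Ccne1, against 21% of all genes. Gins1, Dut, Fen1, Pcna, Tyms and Rfc4 kept their calls whichever library was left out. The counts then ran from 6 to 13 higher, beside 10.6% to 20.3% of all genes, with Pold1 called lower without vehicle replicate 3. Without vehicle replicate 2, Mcm3, Mcm6, Mcm7 and Lig1 joined the 9, in a fit that called 20.3% of all genes higher. In limma on FPKM values, where the median of all genes moved to 0.18, 24 of the 35 genes were higher and 0 lower, beside 32% and 8.98% of all genes, and the median of the 35 lay 0.09 above that of all genes, beside 0.11 by edgeR. There the higher calls made up 78.1% of all calls over all genes, beside 51.2% by edgeR.

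Between the compounds, YWCH-4A gave higher levels than YEXX-2A for 13 of 35 genes (37.1%), against 16.2% of all tested genes called higher. They included 7 of the 9 helicase genes, Cdt1, Rfc3, Fen1, Rpa2, Dut and Chaf1a. Pola1 and Ccne2 were lower with YWCH-4A (5.71%), against 15.1% of all genes called lower. The median log2 difference was 0.15, beside 0.00 for all genes. All 3 YWCH-4A libraries lay above all 3 YEXX-2A libraries for 19 genes, against 29.9% of all genes, and below them for 4, against 29.1% of all genes. Cdc45, Cdt1, Chaf1a, Dut, Fen1, Gins1, Mcm3, Rpa2 and Pola1 kept their calls whichever library was left out. The counts ran from 8 to 19 higher and from 1 to 4 lower in those fits, beside 10.1% to 25.4% and 9.16% to 26.1% of all genes. With the YWCH-4A and YEXX-2A libraries fitted alone, which leaves out the variable vehicle group, 19 genes were higher and 4 lower, beside 25.4% and 26.1% of all genes in that fit. In limma on log2(FPKM + 1), 19 were higher and 1 lower, beside 26% and 9.81% of all genes, with 72.6% of all calls higher, beside 51.7% by edgeR. The plot of log2 fold changes sets the 3 comparisons side by side.

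**Figure D2:**
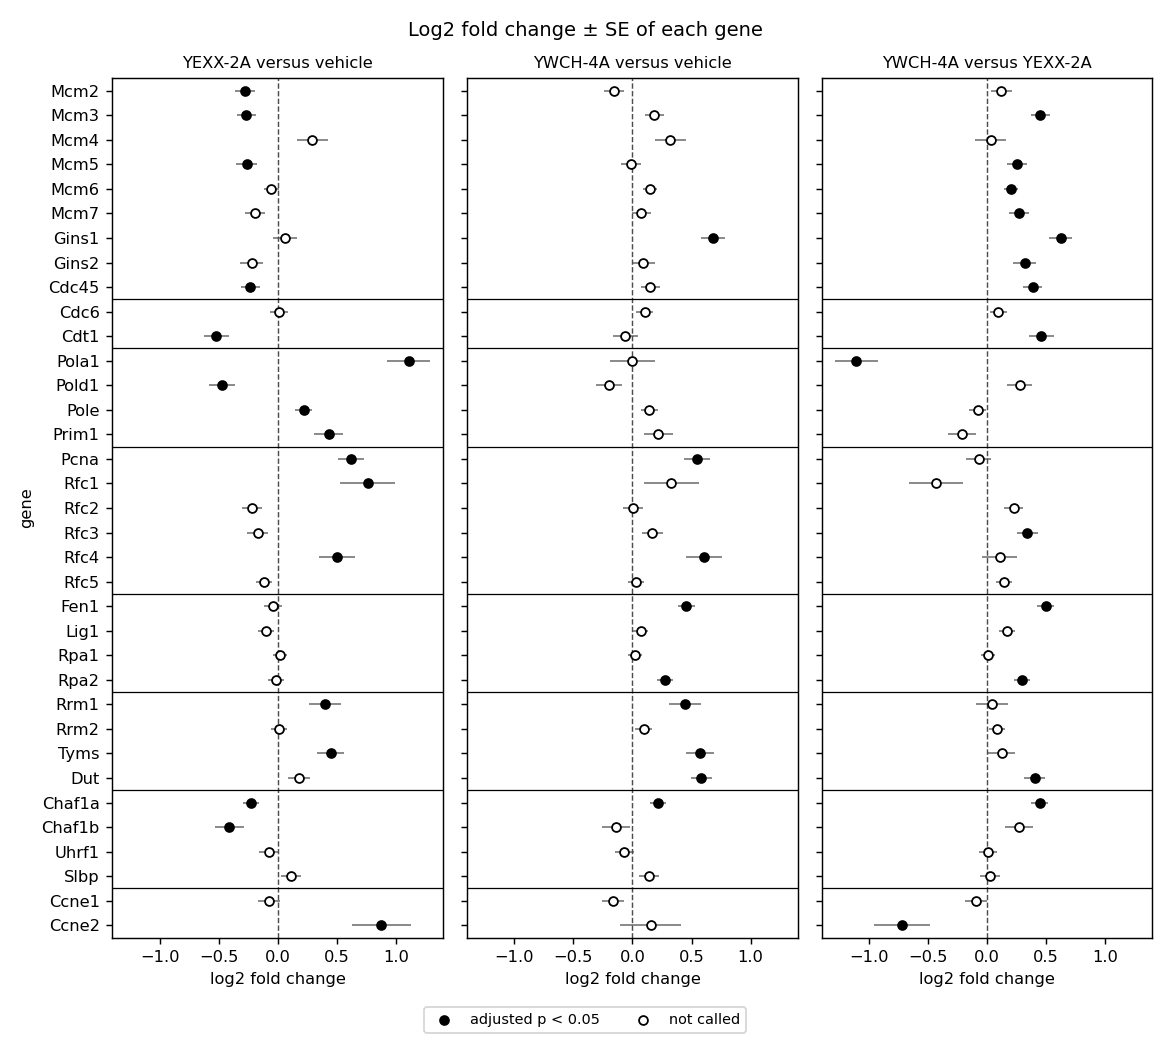
Log2 fold change of each gene (rows, in the order of the heat map) in the 3 comparisons, with bars of 1 SE; filled points have an adjusted p under 0.05. In the left panel 9 genes are called higher and 8 lower, in the middle panel 9 higher and 0 lower, and in the right panel 13 higher and 2 lower, with Pola1 at -1.11.

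The helicase genes are described first. The subunits Mcm2 to Mcm7 form the ring, Gins1 and Gins2 belong to GINS, and Cdc45 completes the active helicase. With YEXX-2A, 4 of these 9 genes (44.4%) fell against vehicle and none rose, against 18.5% and 17.6% of all genes. That count of 4 was 0 without YEXX-2A 1, YEXX-2A 2 or YWCH-4A 1, beside 7.12%, 5.15% and 13.5% of all genes called lower. It was 1 without YWCH-4A 2 or 3, beside 14.1% and 13.9%. Without YEXX-2A 3 or vehicle 1 it was 2, beside 13.9% and 17.3%. With YWCH-4A, Gins1 alone was called against vehicle, and 7 of 9 (77.8%) were higher than with YEXX-2A, against 16.2% of all genes. That count of 7 was 3 without YEXX-2A 2, beside 10.1% of all genes called higher. It was also 3 without YWCH-4A 1, 2 or 3, beside 10.5%, 11.6% and 10.4%. It was 4 without YEXX-2A 1 or 3, beside 11.3% and 13%, and 4 with DESeq2 size factors, beside 14.6%. With the replicate number added to the model it was 3, beside 12%. In the comparison of YWCH-4A with vehicle, 4 of the 9 were higher without vehicle 2, beside 20.3% of all genes. Without vehicle 1, 2 were higher, beside 13.8%. In limma on FPKM values, none of the 9 was called with YEXX-2A against vehicle, 7 were called higher with YWCH-4A against vehicle, beside 32% of all genes, and 8 were higher with YWCH-4A than with YEXX-2A, beside 26% of all genes.

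Gins1 carried the clearest difference of this group. Gins1 (ENSRNOG00000008091) had 16.1, 20.1 and 17.8 CPM with YEXX-2A, 27.1, 28.9 and 27.3 CPM with YWCH-4A, and 17.9, 16.6 and 17.3 CPM with vehicle. YEXX-2A and vehicle libraries overlapped, and all YWCH-4A libraries lay above both. Its log2 fold change was 0.68 (SE 0.10, adjusted p = 0.000456) for YWCH-4A over vehicle, 0.62 (SE 0.10, adjusted p = 0.000856) for YWCH-4A over YEXX-2A, and 0.06 (adjusted p = 0.647) for YEXX-2A over vehicle. Its partner Gins2 was not called against vehicle, with 0.09 (adjusted p = 0.502) for YWCH-4A over vehicle and -0.22 (adjusted p = 0.093) for YEXX-2A over vehicle. Gins2 was higher with YWCH-4A than with YEXX-2A, by 0.32 (SE 0.10, adjusted p = 0.031). That call was lost without YEXX-2A 2 or 3, or YWCH-4A 1, 2 or 3 (adjusted p of 0.0674 to 0.128).

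Mcm2 (ENSRNOG00000016316) had 421, 408 and 441 CPM with YEXX-2A, 469, 452 and 462 CPM with YWCH-4A, and 480.0, 592 and 469 CPM with vehicle. Every compound library lay below every vehicle library, although YWCH-4A replicate 1 and vehicle replicate 3 nearly coincided, and vehicle replicate 2 was the highest of all. Mcm2 fell with YEXX-2A, with a log2 fold change of -0.28 (SE 0.09, adjusted p = 0.0312), and YWCH-4A gave -0.16 (adjusted p = 0.194). Leaving out vehicle replicate 2, the YEXX-2A value was -0.17 and still called, and the call was lost without YEXX-2A 1 or 2, or YWCH-4A 1, 2 or 3 (adjusted p of 0.0508 to 0.116). Mcm3 fell by 0.27 with YEXX-2A (SE 0.08, adjusted p = 0.0288), a call lost without YEXX-2A 1 or 2, or YWCH-4A 1 (adjusted p of 0.0504 to 0.11). Against YEXX-2A it was higher with YWCH-4A, by 0.45 (SE 0.08, adjusted p = 0.00175).

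Mcm5 fell by 0.26 with YEXX-2A (SE 0.09, adjusted p = 0.0387), and Cdc45 fell by 0.23 (SE 0.08, adjusted p = 0.0446). Both calls depended on many libraries. The Mcm5 call was lost without YEXX-2A 1, 2 or 3, YWCH-4A 1, 2 or 3, or vehicle 1 (adjusted p of 0.0529 to 0.153). The Cdc45 call was lost without YEXX-2A 1, 2 or 3, YWCH-4A 1, 2 or 3, or vehicle 1 or 3 (adjusted p of 0.0568 to 0.116). Between the compounds, Cdc45 was higher with YWCH-4A by 0.39 (SE 0.08, adjusted p = 0.00434), a call that no omission of 1 library ended. Mcm5, Mcm6 and Mcm7 were higher with YWCH-4A by 0.25 (SE 0.09, adjusted p = 0.0465), 0.20 (SE 0.06, adjusted p = 0.0328) and 0.27 (SE 0.08, adjusted p = 0.0313). Those 3 calls depended on the libraries kept. For Mcm5 the call was lost without YEXX-2A 1, 2 or 3, YWCH-4A 1, 2 or 3, or vehicle 1 (adjusted p of 0.063 to 0.2), for Mcm6 without YEXX-2A 1 or 2, or YWCH-4A 1, 2 or 3 (adjusted p of 0.0631 to 0.15), and for Mcm7 without YEXX-2A 1, 2 or 3, or YWCH-4A 1, 2 or 3 (adjusted p of 0.055 to 0.134). Mcm4 was called in no comparison, with values of 0.29 (adjusted p = 0.0982) for YEXX-2A over vehicle and 0.32 (adjusted p = 0.0888) for YWCH-4A over vehicle.

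The 6 ring subunits assemble in equal number, and their transcripts differed in level per length. In FPKM, the highest was Mcm2 at 129.6 ± 3.99 FPKM with YEXX-2A, 150.2 ± 2.62 FPKM with YWCH-4A and 148 ± 13.3 FPKM with vehicle (SD, n = 3 each). The lowest was Mcm5 at 19.3 FPKM with YEXX-2A and at 24.4 FPKM with YWCH-4A, and Mcm4 at 21.2 FPKM with vehicle. Among vehicle libraries, Mcm4 lay below Mcm5 in replicate 2 alone (15.4 beside 22.8 FPKM). Mcm2 stood 6.71-fold, 6.15-fold and 6.96-fold above the lowest subunit in YEXX-2A, YWCH-4A and vehicle cells. Levels within the ring thus spanned more than any treatment difference in it.

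Promoters of the set were read from RefSeq sequences of the rat assembly GRCr8, as 250 bases before to 50 bases after each annotated start. Of the 36 genes, 31 had a window. E2F-type words were searched as TTTCCCGC, TTTGGCGC, TTTCGCGC and TTTGCCGC on both strands, each match counted by itself where words overlap. At least 1 word was present in 14 of 31 windows (45.2%), against 2.25% of 27457 windows of the same length, 1 per gene. At least 2 words were present in 8 of 31 (25.8%), against 0.0874% of all windows. The other replication and G1/S genes listed here had a word in 21 of 61 windows (34.4%). CCAAT, on either strand, was in 19 of 31 (61.3%), against 37.7% of all windows. Words were found for 3 of the 8 genes with a window that rose with YEXX-2A, 4 of the 8 that fell, and 3 of the 9 that rose with YWCH-4A. Among genes not called against vehicle, words were found for 7 of 15 with YEXX-2A and 11 of 22 with YWCH-4A. A match describes the letters only.

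Windows of 60 bases around the words are shown here for 7 genes, chosen to set members that rose (Gins1, Pola1, Tyms) beside ring subunits that fell with YEXX-2A or were lower with it than with YWCH-4A. Capitals mark the E2F-type words, and bases run 5′ to 3′ in the direction of transcription. The Gins1, Mcm2, Mcm5 and Mcm6 windows hold a word on each strand that overlap into 1 run. Coordinates are of GRCr8: Gins1 chr3:160184860-160184919, plus strand, Pola1 chrX:62342494-62342553, minus strand, Tyms chr9:120776087-120776146, minus strand, Mcm2 chr4:122918095-122918154, minus strand, Mcm5 chr19:13488576-13488635, plus strand, Mcm6 chr13:42404456-42404515, minus strand and Mcm7 chr12:22163197-22163256, minus strand.
Gins1: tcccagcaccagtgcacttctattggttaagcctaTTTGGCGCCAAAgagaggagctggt
Pola1: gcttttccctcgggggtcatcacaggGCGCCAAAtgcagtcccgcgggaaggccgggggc
Tyms: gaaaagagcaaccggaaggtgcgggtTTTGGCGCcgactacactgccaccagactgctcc
Mcm2: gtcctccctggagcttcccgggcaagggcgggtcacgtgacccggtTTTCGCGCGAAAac
Mcm5: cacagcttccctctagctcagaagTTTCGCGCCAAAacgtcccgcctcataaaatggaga
Mcm6: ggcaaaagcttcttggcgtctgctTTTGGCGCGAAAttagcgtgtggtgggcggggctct
Mcm7: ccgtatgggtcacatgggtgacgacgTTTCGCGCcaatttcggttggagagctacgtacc

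Genes with the same kind of word moved in different directions: Pola1 rose with YEXX-2A, Mcm2 and Mcm5 fell with it, and Gins1 differed with YWCH-4A. In the windows of Cdt1, Dut, Fen1, Pcna and Rfc4, genes among the firmest calls, no word lay wholly before the annotated start. Cdt1 held 2 words after the start. Mcm3, a ring subunit that fell with YEXX-2A, also held 2 words, neither of them wholly before the start. The map of word positions shows where the words lie in the windows that hold any.

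**Figure D3:**
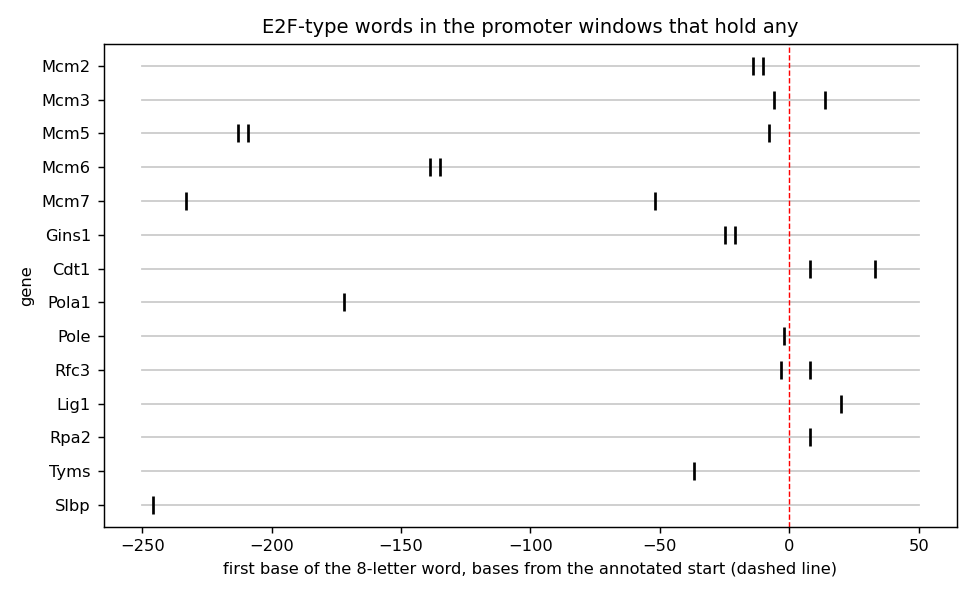
Position of each E2F-type word (black ticks) relative to the annotated start (dashed line) in the promoter windows that hold at least 1 word; each row is a gene and the grey line is the window searched, 250 bases before to 50 bases after the start. The 14 genes shown are those of 31 with a word, and 8 of them hold 2 or more.

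Of the 2 licensing genes, 1 fell with YEXX-2A and neither was called with YWCH-4A against vehicle. Cdt1 (ENSRNOG00000013970) had 61.4, 63.0 and 55.0 CPM with YEXX-2A, 81.9, 81.2 and 83.6 CPM with YWCH-4A, and 81.7, 102 and 74.4 CPM with vehicle. All YEXX-2A libraries were below all others, and the YWCH-4A and vehicle libraries overlapped. Cdt1, which brings the ring to the origin, fell by 0.52 with YEXX-2A (SE 0.11, adjusted p = 0.00845). It was 0.46 (SE 0.11, adjusted p = 0.00814) higher with YWCH-4A than with YEXX-2A on the log2 scale, and -0.06 (adjusted p = 0.689) between YWCH-4A and vehicle. Without vehicle replicate 2 the YEXX-2A value was -0.38, still called. Its partner Cdc6 (ENSRNOG00000027787) had 49.9, 47.6 and 48.0 CPM with YEXX-2A, 53.4, 49.3 and 52.6 CPM with YWCH-4A, and 50.8, 48.9 and 44.8 CPM with vehicle. Cdc6 values overlapped in all 3 comparisons, with log2 changes of 0.01 (adjusted p = 0.913) for YEXX-2A over vehicle, 0.10 (adjusted p = 0.306) for YWCH-4A over vehicle and 0.09 (adjusted p = 0.352) for YWCH-4A over YEXX-2A.

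The E-type cyclins activate Cdk2 at the entry into S phase. Ccne2 (ENSRNOG00000008055) had 6.69, 7.68 and 5.18 CPM with YEXX-2A, 3.80, 4.72 and 3.38 CPM with YWCH-4A, and 3.91, 2.22 and 4.52 CPM with vehicle. YEXX-2A libraries lay above both other groups, and vehicle replicate 2 was the lowest of its group. Ccne2 rose with YEXX-2A, by 0.88 (SE 0.25, adjusted p = 0.0242), and was -0.72 (SE 0.24, adjusted p = 0.0418) with YWCH-4A against YEXX-2A. Ccne2 had the lowest counts of the set, 28 to 151 per library, and its YEXX-2A call was lost without YEXX-2A replicate 1 (0.0704, adjusted) or replicate 2 (0.0986). Its call between the compounds was lost without YEXX-2A 1 or 2, YWCH-4A 1, 2 or 3, or vehicle 1 (adjusted p of 0.0504 to 0.16). The YEXX-2A value was 0.64 without vehicle replicate 2. Ccne1 was called in no comparison, with -0.07 (adjusted p = 0.538) for YEXX-2A over vehicle and -0.16 (adjusted p = 0.213) for YWCH-4A over vehicle.

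Of the 4 polymerase and primase genes, 3 rose and 1 fell with YEXX-2A, and none was called with YWCH-4A against vehicle. Pola1 (ENSRNOG00000013322) had 22.0, 25.1 and 20.6 CPM with YEXX-2A, 11.4, 11.0 and 8.94 CPM with YWCH-4A, and 11.9, 7.13 and 12.3 CPM with vehicle. Each YEXX-2A library exceeded every YWCH-4A and vehicle library, and the other groups overlapped. Pola1 rose with YEXX-2A by 1.11 (SE 0.18, adjusted p = 0.00373), the largest log2 change of the set, and was -1.11 (SE 0.18, adjusted p = 0.00105) with YWCH-4A against YEXX-2A. Between YWCH-4A and vehicle its value was 0.00 (adjusted p = 0.998). Without vehicle replicate 2, where Pola1 was lowest, the YEXX-2A value was 0.90.

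Prim1, the catalytic subunit of the primase that works with Pola1, rose with YEXX-2A by 0.43 (SE 0.12, adjusted p = 0.023), a call lost without YEXX-2A replicate 1 (0.0674, adjusted) or replicate 2 (0.081). Pole, the leading-strand polymerase, rose by 0.22 (SE 0.07, adjusted p = 0.0379), a call lost without YEXX-2A 1, 2 or 3, YWCH-4A 1 or 3, or vehicle 1 (adjusted p of 0.0621 to 0.111). Pold1, the catalytic subunit that extends the lagging strand, fell by 0.47 (SE 0.11, adjusted p = 0.0122) and lost its call only without YEXX-2A replicate 2 (0.0546). Pola1 and Prim1 thus rose with YEXX-2A while Pold1 fell. Fen1 and Lig1, which join lagging-strand fragments, were not called, at -0.04 (adjusted p = 0.66) and -0.10 (adjusted p = 0.247) for YEXX-2A over vehicle. With YWCH-4A the values were 0.22 (adjusted p = 0.193) for Prim1, 0.14 (adjusted p = 0.161) for Pole and -0.20 (adjusted p = 0.19) for Pold1.

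Pcna is the ring that holds polymerases on DNA, and replication factor C, built of Rfc1 to Rfc5, loads it. Pcna (ENSRNOG00000021264) had 99.6, 108 and 95.6 CPM with YEXX-2A, 94.9, 102 and 91.2 CPM with YWCH-4A, and 69.9, 53.5 and 73.9 CPM with vehicle. Both compound groups lay wholly above vehicle. Pcna rose with YEXX-2A by 0.62 (SE 0.11, adjusted p = 0.00486) and with YWCH-4A by 0.55 (SE 0.11, adjusted p = 0.00354). Between the compounds the log2 difference was -0.07 (adjusted p = 0.652), with a 95% interval of -0.31 to 0.17. With vehicle replicate 2 left out, the values against vehicle were 0.49 and 0.42, both called.

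Rfc4 (ENSRNOG00000001816) had 25.9, 32.8 and 27.9 CPM with YEXX-2A, 31.9, 32.4 and 28.9 CPM with YWCH-4A, and 23.2, 15.3 and 22.5 CPM with vehicle. Vehicle replicate 2 was the lowest library, and both compound groups lay above all vehicle libraries. Rfc4 rose with YEXX-2A by 0.50 (SE 0.15, adjusted p = 0.0306) and with YWCH-4A by 0.61 (SE 0.15, adjusted p = 0.0115). The YEXX-2A call was lost without YEXX-2A 1, 2 or 3, or YWCH-4A 1 (adjusted p of 0.0501 to 0.123), and without vehicle replicate 2 its value was 0.33. The YWCH-4A call was kept throughout. Rfc1 (ENSRNOG00000002855) had 42.6, 55.6 and 38.6 CPM with YEXX-2A, 31.9, 38.3 and 31.3 CPM with YWCH-4A, and 31.6, 16.0 and 33.0 CPM with vehicle. Rfc1, the largest subunit, rose with YEXX-2A by 0.76 (SE 0.23, adjusted p = 0.0303), a call lost without YEXX-2A replicate 1 (0.0674, adjusted) or replicate 2 (0.122). Without vehicle replicate 2, which was far below its group, the Rfc1 value was 0.51 (adjusted p = 0.0423). YWCH-4A gave 0.33 (adjusted p = 0.314) against vehicle and -0.43 (adjusted p = 0.171) against YEXX-2A, with a 95% interval of -0.93 to 0.07.

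Rfc2, Rfc3 and Rfc5 were not called against vehicle. With YEXX-2A their log2 values were -0.22 (adjusted p = 0.06), -0.17 (adjusted p = 0.137) and -0.11 (adjusted p = 0.191). Only Rfc3 of the 3 was called between the compounds by edgeR over all libraries, higher with YWCH-4A by 0.34 (SE 0.09, adjusted p = 0.0134), and that call was lost without YEXX-2A 2, or YWCH-4A 1 or 3 (adjusted p of 0.0507 to 0.0644). Per length, Rfc1 was the least abundant loader subunit, at 10.1 FPKM with YEXX-2A, 7.79 FPKM with YWCH-4A and 5.56 FPKM with vehicle. Rfc2 was the most abundant, at 30.4 FPKM with YEXX-2A, 37.8 FPKM with YWCH-4A and 33.3 FPKM with vehicle. The gap between these 2 subunits was 3-fold with YEXX-2A, 4.85-fold with YWCH-4A and 6-fold with vehicle. Vehicle replicate 2 widened the vehicle gap, as Rfc1 had 3.04 FPKM there, beside 6.65 and 6.98 FPKM in vehicle 1 and 3.

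Fen1 trims the flaps left on lagging-strand fragments and Lig1 seals them, while Rpa1 and Rpa2 coat single-stranded DNA. Fen1 (ENSRNOG00000020531) had 54.3, 53.4 and 55.3 CPM with YEXX-2A, 79.7, 74.9 and 75.4 CPM with YWCH-4A, and 58.0, 59.0 and 50.9 CPM with vehicle. The YWCH-4A libraries stood above all others, and YEXX-2A and vehicle overlapped. Fen1 rose with YWCH-4A over vehicle by 0.46 (SE 0.07, adjusted p = 0.000862) and over YEXX-2A by 0.50 (SE 0.07, adjusted p = 0.000508), with -0.04 (adjusted p = 0.66) for YEXX-2A over vehicle. Rpa2 rose with YWCH-4A over vehicle by 0.28 (SE 0.07, adjusted p = 0.00949), a call lost without YWCH-4A replicate 2 (0.0505), and over YEXX-2A by 0.29 (SE 0.07, adjusted p = 0.007). Its partner Rpa1 was called nowhere, at 0.02 (adjusted p = 0.836) for YEXX-2A and 0.02 (adjusted p = 0.79) for YWCH-4A over vehicle. Lig1 gave 0.07 (adjusted p = 0.463) for YWCH-4A over vehicle and 0.17 (adjusted p = 0.0774) for YWCH-4A over YEXX-2A.

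Of the 4 genes of nucleotide supply, 2 rose with YEXX-2A and 3 rose with YWCH-4A against vehicle. Tyms (ENSRNOG00000037225) had 34.3, 36.1 and 31.4 CPM with YEXX-2A, 38.9, 37.2 and 35.0 CPM with YWCH-4A, and 26.3, 20.4 and 28.1 CPM with vehicle. Both compound groups lay above all vehicle libraries. Tyms, which makes thymidylate, rose with YEXX-2A by 0.45 (SE 0.12, adjusted p = 0.0194), a call lost without YEXX-2A replicate 1 (0.0618, adjusted) or replicate 2 (0.0802), and with YWCH-4A by 0.57 (SE 0.12, adjusted p = 0.00404). Between the compounds it differed by 0.12 (adjusted p = 0.443), with a 95% interval of -0.13 to 0.38.

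Dut (ENSRNOG00000007221) had 36.8, 33.7 and 32.8 CPM with YEXX-2A, 46.6, 48.1 and 41.8 CPM with YWCH-4A, and 32.8, 29.7 and 28.7 CPM with vehicle. The YWCH-4A values were above all others. Dut, which removes dUTP so that uracil stays out of DNA, rose with YWCH-4A over vehicle by 0.58 (SE 0.09, adjusted p = 0.000667) and over YEXX-2A by 0.40 (SE 0.09, adjusted p = 0.00634), while YEXX-2A over vehicle gave 0.18 (adjusted p = 0.133). Rrm1 (ENSRNOG00000045752) had 187, 202 and 211 CPM with YEXX-2A, 209.7, 204 and 204 CPM with YWCH-4A, and 163, 112 and 178 CPM with vehicle. Rrm1, the large subunit of ribonucleotide reductase, rose with YEXX-2A by 0.40 (SE 0.14, adjusted p = 0.0417) and with YWCH-4A by 0.44 (SE 0.14, adjusted p = 0.0304). Vehicle replicate 2 was its lowest library, and without it the values were 0.23 and 0.27, both still called. The YEXX-2A call was lost without YEXX-2A 1, 2 or 3, or YWCH-4A 1, 2 or 3 (adjusted p of 0.0625 to 0.116), and the YWCH-4A call without YWCH-4A 1, 2 or 3 (adjusted p of 0.072 to 0.0879). Between the compounds the interval of the Rrm1 difference was -0.26 to 0.34. Rrm2, the small subunit whose level changes with the cell cycle, gave 0.01 (adjusted p = 0.904) with YEXX-2A and 0.09 (adjusted p = 0.336) with YWCH-4A over vehicle.

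Of the 4 genes of chromatin assembly and histone supply, 2 fell with YEXX-2A and 1 rose with YWCH-4A against vehicle. Chaf1a (ENSRNOG00000046479) had 63.7, 58.6 and 61.2 CPM with YEXX-2A, 86.8, 80.8 and 82.0 CPM with YWCH-4A, and 69.3, 77.1 and 68.7 CPM with vehicle. YEXX-2A libraries lay below vehicle and YWCH-4A libraries above it. Chaf1a, the large subunit of the factor that places histones on new DNA, fell by 0.23 with YEXX-2A (SE 0.07, adjusted p = 0.0333) and rose with YWCH-4A by 0.22 (SE 0.07, adjusted p = 0.0412). Chaf1a was the only gene of the 35 called in opposite directions against the shared vehicle libraries. The 2 calls against vehicle were weak. The YEXX-2A call was lost without YEXX-2A 1, 2 or 3, or YWCH-4A 1, 2 or 3 (adjusted p of 0.0521 to 0.129). The YWCH-4A call was lost without YEXX-2A 1, 2 or 3, YWCH-4A 1, 2 or 3, or vehicle 1 or 3 (adjusted p of 0.0594 to 0.173). The direct difference, 0.44 (SE 0.07, adjusted p = 0.000924) for YWCH-4A over YEXX-2A, kept its call throughout. Chaf1b, the second subunit, fell by 0.41 with YEXX-2A (SE 0.12, adjusted p = 0.0268), a call lost without YEXX-2A replicate 1 (0.0525, adjusted) or replicate 2 (0.109), and gave -0.14 (adjusted p = 0.393) with YWCH-4A. Uhrf1, which carries DNA methylation to the new strand, and Slbp, which binds histone mRNA, were called in no comparison, with log2 values between -0.08 and 0.14.

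**Figure D4:**
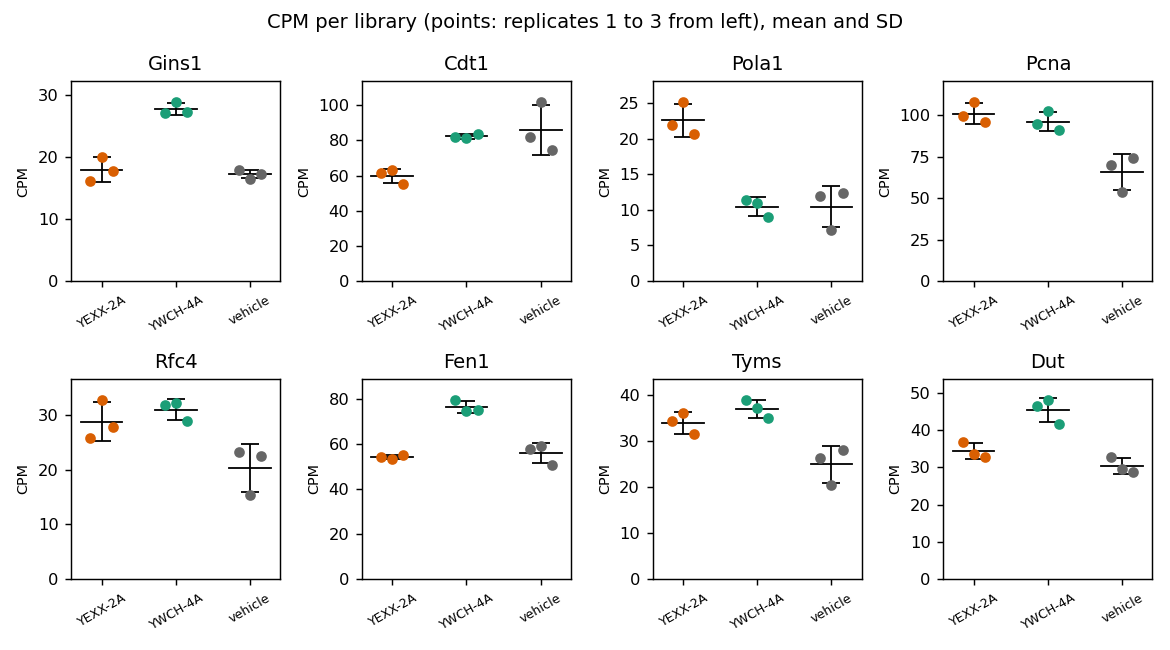
CPM per library (vertical axis, starting at 0) of the 8 genes whose call against vehicle held under all 19 alternative analyses, with the mean and SD of each group of 3. Pola1 is high with YEXX-2A alone, Cdt1 is low with YEXX-2A, Gins1, Fen1 and Dut are high with YWCH-4A, and Pcna is above vehicle with both.

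The 2 comparisons with vehicle share their controls, so their lists are set side by side. Pcna, Rfc4, Rrm1 and Tyms were higher with each compound, 4 of the 9 that rose with YEXX-2A and 4 of the 9 that rose with YWCH-4A. Another 14 genes were called with neither. The same counts were not made over all tested genes, so the overlap is a description and is not read as unusual. The plot of CPM values shows the calls that held in every alternative.

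Most genes called with YEXX-2A also deviated in vehicle replicate 2. Of the 9 genes that rose, 8 were lower in vehicle replicate 2 than in both other vehicle libraries, with a median difference of -0.58 on the log2 scale. Of the 8 that fell, 7 were higher there, with a median of 0.29. Vehicle replicate 2 is among the libraries that set these calls, so its deviations and the calls are not independent. The same counts were not made over all called genes, and these numbers are a description only. The largest deviations were -1.01 for Rfc1, -0.89 for Ccne2 and -0.76 for Pola1. Without that library all 17 YEXX-2A calls were kept, 9 higher and 8 lower, and every value except that of Cdc45 was smaller. YEXX-2A replicate 2 deviated the other way from its own group. Across the 35 genes the 2 deviations had a Pearson r of -0.80 and a Spearman rho of -0.67, and across all 11473 genes -0.27 and -0.53. These describe libraries of different groups, and genes are not independent replicates. The scatter of both deviations shows the rising and falling genes at opposite corners.

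**Figure D5:**
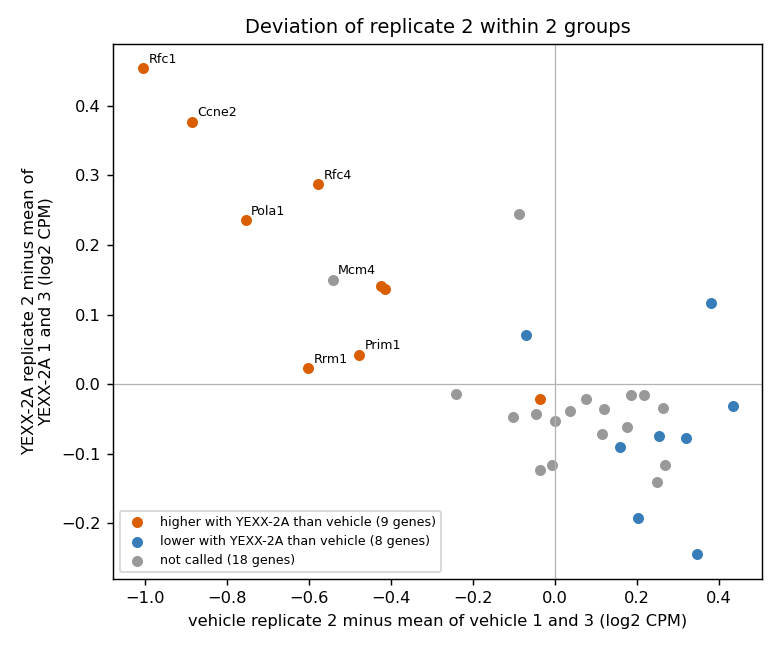
For each of the 35 genes, the log2 CPM of vehicle replicate 2 minus the mean of vehicle replicates 1 and 3 (horizontal) and of YEXX-2A replicate 2 minus the mean of YEXX-2A replicates 1 and 3 (vertical), coloured by the call of YEXX-2A against vehicle. Genes that rose lie mostly at the upper left and genes that fell at the lower right (r = -0.80 over 35 genes). The libraries on both axes also set the calls, so colour and position are not independent.

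A further 80 genes of replication and G1/S control were listed, of which 74 were tested. With YEXX-2A, 14 of the 74 rose (18.9%) and 4 fell (5.41%) against vehicle, beside 17.6% and 18.5% of all genes, and the median over the 74 was 0.20 on the log2 scale. Among the called genes, the largest changes were rises of Tfdp2, a partner of E2F factors, by 0.97 (SE 0.15, adjusted p = 0.00308), of the origin recognition subunits Orc2 by 0.94 (SE 0.18, adjusted p = 0.00659), Orc3 by 0.80 (SE 0.26, adjusted p = 0.0352) and Orc4 by 0.80 (SE 0.24, adjusted p = 0.0281), and of Rpa3, the small RPA subunit, by 0.67 (SE 0.19, adjusted p = 0.024). With YWCH-4A, 12 rose (16.2%) and 4 fell (5.41%), beside 15.7% and 14.9% of all genes, with a median of 0.18. Large changes among the called genes were rises of Tfdp2 by 0.90 (SE 0.15, adjusted p = 0.00134), Rpa3 by 0.77 (SE 0.19, adjusted p = 0.0104), Pole3 by 0.57 (SE 0.14, adjusted p = 0.00981) and Gmnn, the Cdt1 inhibitor, by 0.54 (SE 0.12, adjusted p = 0.00726).

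Between the compounds, 7 of the 74 genes were higher with YWCH-4A (9.46%) and 4 lower (5.41%), beside 16.2% and 15.1% of all genes, with a median of 0.00. Among the called genes, the largest differences were Orc2 at -0.93 (SE 0.18, adjusted p = 0.00274), Atad5, which unloads Pcna, at -0.78 (SE 0.21, adjusted p = 0.0189), the Cdk inhibitor Cdkn1b at -0.64 (SE 0.21, adjusted p = 0.0367), Rb1, which restrains E2F factors, at -0.57 (SE 0.17, adjusted p = 0.0235) and the histone chaperone Asf1b at 0.49 (SE 0.09, adjusted p = 0.00302). A list of 25 mitosis genes, 24 of them tested, gave 10 higher (41.7%) and 2 lower (8.33%) with YEXX-2A against vehicle, beside 17.6% and 18.5% of all genes, with a median of 0.23. With YWCH-4A against vehicle, 4 were higher (16.7%) and 1 lower (4.17%), beside 15.7% and 14.9% of all genes, with a median of 0.06. With YWCH-4A against YEXX-2A, 3 were higher (12.5%) and 5 lower (20.8%), beside 16.2% and 15.1% of all genes, with a median of -0.11. Median log2 differences in that comparison were thus -0.11 for the mitosis genes, 0.15 for the 35 genes of the set and 0.00 for the other 74.

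The genes outside the set whose log2 CPM followed its mean standardised profile most closely over the 9 libraries, among 9404 candidates averaging 5 CPM or more, were Mlx (Pearson r = 0.98), Tbc1d2b (0.98), Gusb (0.98), Bckdhb (0.97) and Ccsap (0.97). These values describe 9 libraries in 3 groups and carry no test.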

How the data were processed

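RNA sequencing libraries of 9 NRK-49F samples, 3 per group, were analysed. For each gene, the authors deposited an estimated count and the FPKM of every library, per the file headers. The authors' tools, per the submitters' processing notes, were RSEM, edgeR, DESeq2 and StringTie 1.3.1, with no role stated. The aligner, genome build and strand setting are not given in the sources used here, so reads of overlapping genes cannot be told apart. Of the estimated counts above 0, 8.87% were not whole, and counts were rounded. Another 7019 genes had no count. The robust quasi-likelihood test of edgeR 4.0.16 (R 4.3.3) was run with group as the factor, TMM scaling, filterByExpr (minimum count 10) and two-sided p-values. SE is the log2 fold change divided by the square root of F. CPM was computed from the deposited counts, and depth sets the counting error of low genes. The members and gene lists were chosen with earlier results of these data known. Values per library are given for members called with an absolute log2 fold change of at least 0.5, or first in their role, and the 5 largest changes are named from the other lists, except 1 result that is not reported here. Alternatives used DESeq2 1.42.0 and limma 3.58.1. Promoters are RefSeq sequences of GRCr8.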

Additional observations from a re-analysis of the deposited data

How the results depend on the processing

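Of the 41 calls, 18 were kept under all 19 alternatives: 3 of 17 for YEXX-2A over vehicle, 6 of 9 for YWCH-4A over vehicle and 9 of 15 for YWCH-4A over YEXX-2A. No called value changed sign. For YEXX-2A over vehicle, 5 were higher and 4 lower by voom with weights per group, beside 12.5% and 13% of all genes. With only the 2 groups compared, a fit that also changes the filter and scaling, 2 were higher and 2 lower, beside 5.92% and 6.59%. The replicate block also gave 2 higher and 2 lower, beside 7.5% and 9.33% of all genes. The labels do not say whether same-numbered libraries were handled together. Same-numbered deviations correlated between -0.27 and 0.08, and libraries did not all correlate best with their own number. With 3 libraries per group and vehicle replicate 2 far from its group, these correlations cannot settle whether the numbers pair the libraries. With the replicate block, 9 members were higher and 1 lower with YWCH-4A than with YEXX-2A, beside 12% and 10.8% of all genes. In limma on log2(FPKM + 1), 3 were lower with YEXX-2A (median 0.044), 24 higher with YWCH-4A over vehicle (median 0.27) and 1 lower with YWCH-4A than YEXX-2A (median 0.22). With 0.1 in place of 1, the counts were 3, 24 and 1 and the medians 0.045, 0.32 and 0.23. FPKM carries no TMM factor, and the median of all genes moved to 0.18 and 0.21 for YWCH-4A over vehicle. It moved to 0.073 and 0.09 for YEXX-2A over vehicle, and to 0.076 and 0.091 for YWCH-4A over YEXX-2A. With the library score as a covariate, 11 rose and 13 fell with YEXX-2A, beside 33.3% and 30.5% of all genes, and 17 rose and 2 fell with YWCH-4A, beside 31.7% and 24.9% of all genes. In the same fit 19 were higher and 4 lower with YWCH-4A than YEXX-2A, beside 28% and 28.5% of all genes. The count of lower genes between the compounds was also 4 by voom and with only the 2 groups compared, beside 26.2% and 26.1% of all genes. Leaving out each library gave 2 to 9 higher and 1 to 9 lower for YEXX-2A over vehicle (median -0.086 to -0.002). The shares of all genes were 3.87% to 23.5% and 5.15% to 22.1%. For YWCH-4A over vehicle it gave 6 to 13 higher and 0 to 1 lower (median 0.10 to 0.15), beside 10.6% to 20.3% and 10.6% to 19.1%. For YWCH-4A over YEXX-2A it gave 8 to 19 higher and 1 to 4 lower (median 0.13 to 0.17), beside 10.1% to 25.4% and 9.16% to 26.1%. DESeq2, its size factors, no filter and a stricter filter kept the counts over the 35 genes within 1.5 times. The helicase genes higher with YWCH-4A than with YEXX-2A numbered 4 with DESeq2 size factors and 3 with the replicate block, beside 7. With 3 libraries per group, calls near an adjusted p of 0.05, as for most ring subunits, turned on which libraries were kept. The cause of these shifts was not tested.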
